A study of Mus musculus with 18 samples.

Results

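The differentiation of 1 edited C2C12 clone, labelled a knockout of the Dlk1-Dio3 noncoding RNA cluster, was described by comparing its myotubes with its myoblasts across all genes. C2C12 is a mouse muscle precursor line that grows as single myoblasts and fuses into multinucleated myotubes when serum is lowered. The comparison used 6 of the 18 RNA-seq libraries of the series, taken by their titles: 3 of knockout myoblasts and 3 of knockout myotubes, each set lettered A, B and C. Myoblasts were grown in DMEM with fetal bovine serum, and myotubes were harvested on day 3 after confluent cells had been moved to DMEM with horse serum. Both groups carry the same edit. The cells had received a pair of Cas9 guide constructs aimed at the promoter region of Meg3, had been sorted for EGFP, had been grown from single cells and had been genotyped by PCR. The knockout is therefore 1 clone, and the effect of the edit and the history of that clone cannot be told apart. Where its response is set beside others, these are a control, which is cells given only the pX458 vector and sorted as a population, and a second clone from the same editing, labelled an overexpressor, each with 3 myoblast and 3 day 3 myotube libraries. The series was made to ask how the dosage of this cluster bears on the state of muscle cells and on their differentiation. Nothing in the labels says that A, B and C came from separate cultures. The p-values below therefore measure only the spread between replicate libraries, estimated from all 18 together, which may be technical.

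Skeletal myoblasts differentiate in an ordered way. The factors Myod1 and Myf5 mark committed myoblasts, Myog and the MEF2 factors then switch on contractile genes, the cells leave the cell cycle with the help of the inhibitor p21, and membrane proteins such as myomaker fuse them into fibres that build sarcomeres, calcium stores and an acetylcholine receptor. The Dlk1-Dio3 region is imprinted: the maternal copy makes Meg3, Rian and Mirg, the last 2 of which host small RNAs, and the paternal copy makes the proteins Dlk1, Rtl1 and Dio3.

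Library totals ran from 43685747 to 53451258 counts in knockout myoblasts and from 52718190 to 63456607 in knockout myotubes. The 10 most abundant genes took 6.15% to 6.39% of the counts in myoblasts and 8.91% to 10.1% in myotubes. Replicates were closer in myoblasts, with a biological coefficient of variation of 4.23%, than in myotubes, where it was 12.5%. The myotube libraries also differed among themselves along gene length. Relative to library A, library C was higher by a median of 0.19 log2 over the 209 protein-coding genes with up to 1 kb of exon, and lower by a median of -0.30 log2 over the 2220 genes with more than 8 kb. Library B lay between them, with medians of 0.09 and -0.11, whereas in myoblasts the medians lay between -0.016 and 0.025 in all 6 length classes. Long genes were also those that fell more often. Of the genes over 8 kb, 59.2% were called lower in myotubes and 20.3% higher, against 15.3% and 59.3% of those up to 1 kb. A second fit with a smooth length trend taken out of each library was therefore run, a choice made after seeing the data, and the calls on named genes that it ended are given with those genes.

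**Figure D1:**
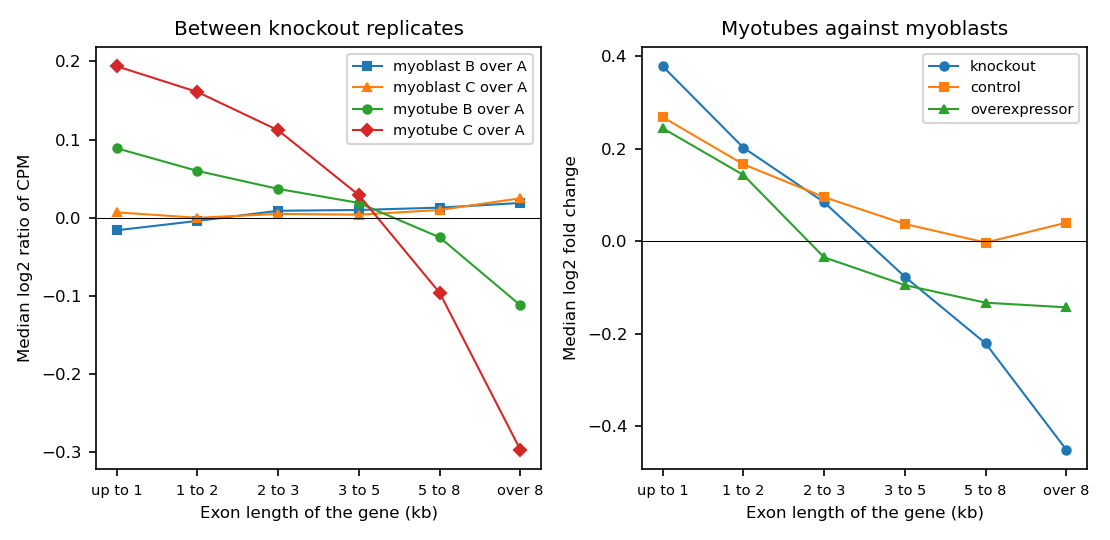
Median log2 ratio of CPM between knockout replicates (left) and median log2 fold change of myotubes against myoblasts in each line (right), by exon length of protein-coding genes with at least 1 CPM. Myotube library C falls from 0.19 to -0.30 against library A as length grows, the knockout response falls from 0.38 to -0.45, and both myoblast lines stay flat.

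The labels could not be checked by the targeted gene. Meg3 and Mirg had 0 counts in all 6 knockout libraries and also in all 6 control libraries. Rian had 0 counts in the 3 knockout myoblast libraries and 4, 4 and 1 counts in the myotubes, which is at the level of a few reads per library. Rtl1, a retrotransposon-derived gene of the paternal copy, stood at 0.129, 0.255 and 0.107 CPM in myoblasts and 0.700, 0.569 and 0.648 CPM in myotubes, with no overlap (log2 fold change 1.94, SE 0.388, adjusted p = 0.000569), and Dlk1 and Dio3 had too few counts to be tested. CPM are read counts per 1000000, scaled to the library total with its TMM factor, and are given for A, B and C in that order throughout. The cells were muscle cells by their markers. All 10 skeletal muscle markers rose, or 9 with the length trend taken out and 8 with library totals, and their summed level was 13600 to 16600 CPM in myoblasts and 39200 to 47700 CPM in myotubes. Markers of other cell types were mixed. The smooth muscle list, which holds Des and Acta2, summed to 10400 to 11100 and 14700 to 18200 CPM, with 3 of 7 higher and 2 lower. The leukocyte list summed to 1.91 to 2.69 CPM in myoblasts and 1.77 to 2.08 in myotubes with Itgam higher, Csf1r and Cd68 lower and Adgre1 at or under 3 counts in every library, the endothelial list to 0.731 to 1.17 and 3.18 to 3.64 with Kdr and Emcn at that floor, and the adipocyte list to 46.3 to 48.2 and 24.7 to 26.6 with Adipoq, Plin1 and Cidec at it. The fibroblast list summed to 392 to 616 CPM in myoblasts and 1370 to 1600 in myotubes, with Col1a1, Dcn and Lum higher, Pdgfra lower and Dpt and Pi16 not called, and the part of such cells in the matrix results was not tested.

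Of 17912 genes tested, 5330 (29.8%) were higher in knockout myotubes and 6377 (35.6%) were lower at an adjusted p below 0.05. A change of at least 2-fold was met by 2057 genes on the higher side (11.5%) and by 2741 on the lower side (15.3%). The myotube and myoblast replicates did not overlap, with myotubes above, for 32.9% of the genes and, with myotubes below, for 39.4%. These shares are the background for the counts of gene groups in the knockout. Which side is larger rests on the scaling: TMM factors gave 45.5% of the called genes as higher, the size factors of DESeq2 gave 53.7% and library totals gave 34%, as the median over all genes moved from -0.075 to 0.037 and -0.243 log2. Directions of modest size are read against that shift. In bulk RNA, fewer cells of a kind and less RNA per cell cannot be told apart.

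**Figure D2:**
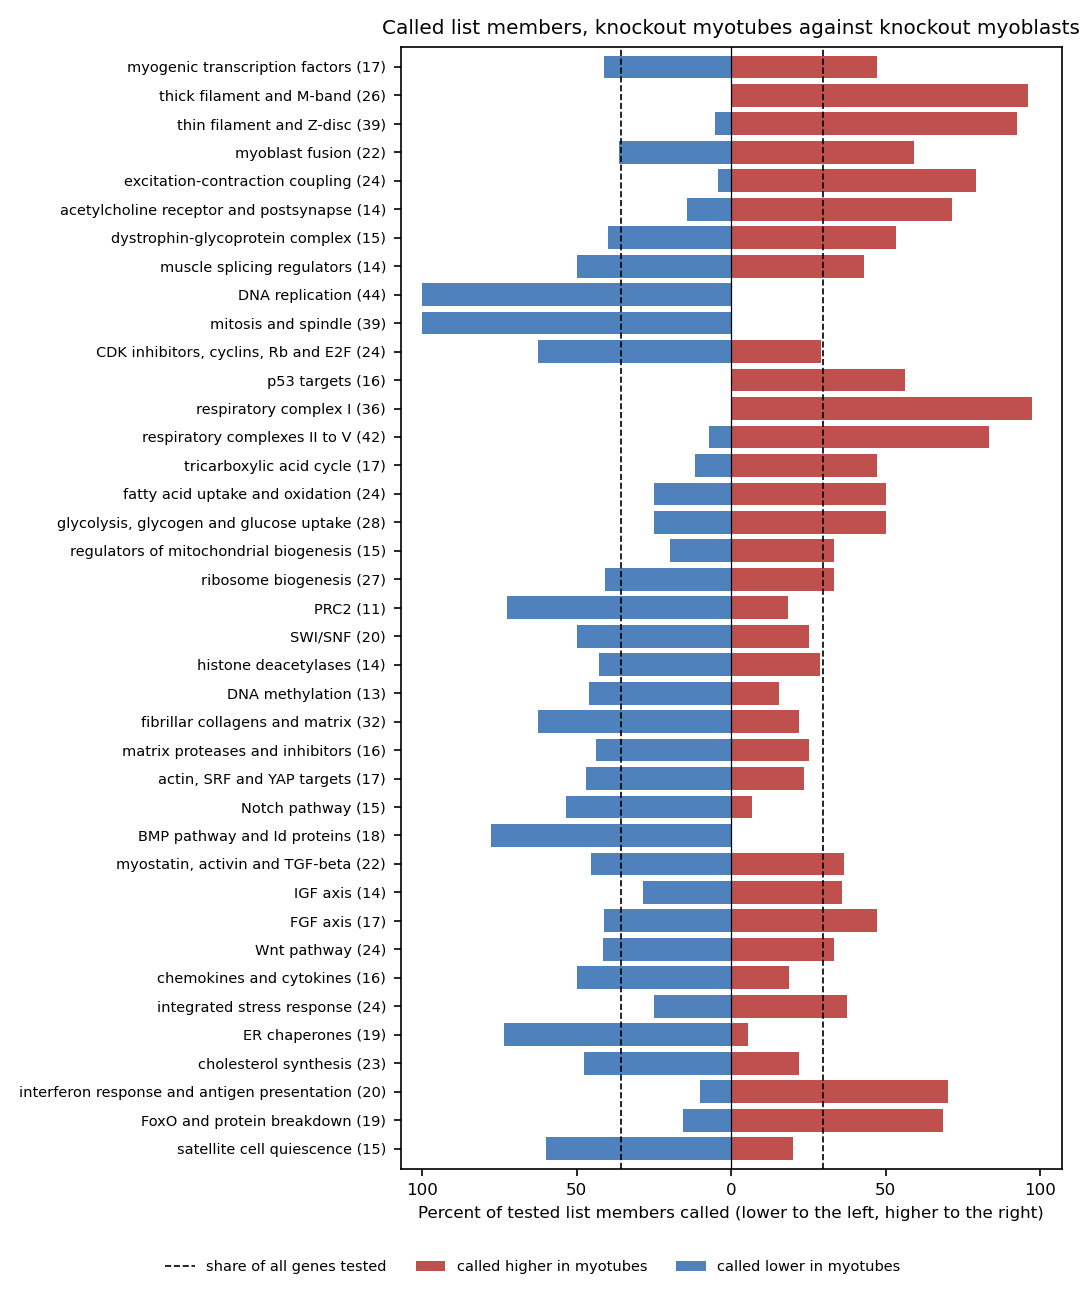
Share of the tested members of gene lists with at least 10 tested members called higher (red, to the right) or lower (blue, to the left) in knockout myotubes against knockout myoblasts, with the number tested in brackets and dashed lines at the shares over all genes (29.8% and 35.6%). Contractile and respiratory lists reach far past the line on the higher side, and DNA replication and mitosis fill the whole lower side.

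The transcription factors that run the muscle programme were split. Of 17 tested, 8 rose and 7 fell, or 7 and 7 with the length trend taken out. Myogenin (Myog), which commits myoblasts to differentiation, stood at 1082, 1249 and 1139 CPM in myoblasts and 2360, 2522 and 2714 CPM in myotubes. The myotube values were all higher (log2 fold change 1.13, SE 0.138, adjusted p = 2.08e-06), a 2.19-fold rise from a high starting level. Control cells went from 105 ± 18.6 to 1732 ± 59.6 CPM (mean ± SD), n = 3 in each control group here and below. Myod1, the factor that opens muscle genes, moved little, at 324, 317 and 313 CPM in myoblasts and 354, 378 and 423 CPM in myotubes (log2 fold change 0.28, SE 0.0963, adjusted p = 0.018). That call was lost with library totals (adjusted p = 0.311), with the length trend taken out (adjusted p = 0.288) and without myoblast library C or myotube library C (adjusted p = 0.0511 and 0.0984). Mef2c, a partner of Myog on contractile genes, stood at 26.9, 29.6 and 23 CPM in myoblasts and 148, 99.5 and 98.5 CPM in myotubes (log2 fold change 2.12, SE 0.26, adjusted p = 5.2e-06), with library A above the others. Mef2d rose as well (log2 fold change 1.35), as did Tead4, a Hippo pathway factor, at 75.8, 92.3 and 80.6 CPM in myoblasts and 281, 295 and 302 CPM in myotubes (log2 1.82), and Myf6, the late member of the MyoD family, at 2.45, 2.62 and 2.31 CPM in myoblasts and 11.1, 11.1 and 10.6 CPM in myotubes (log2 2.15). Mef2a was different: it stood at 339, 367 and 348 CPM in myoblasts and 339.9, 254 and 234 CPM in myotubes, so that the groups overlapped and no call was made (adjusted p = 0.132), while control cells went from 98.4 ± 4.6 to 559 ± 66.9 CPM (mean ± SD). Without myotube library A, Mef2a was called lower, at -0.53 (adjusted p = 0.0386), as it was with library totals. Several factors of the undifferentiated myoblast fell, while Msc, on the same list, was among those that rose. Myf5, which marks proliferating myoblasts, had a log2 fold change of -1.53, and the co-activators Eya1 and Eya4 had -1.09 and -1.35. Pax7, the satellite cell factor, stood at 18.5, 18.4 and 17.7 CPM in myoblasts and 11.8, 14.4 and 11.7 CPM in myotubes (log2 fold change -0.52, SE 0.0928, adjusted p = 9.06e-05).

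Some of the promoters behind the largest groups are shown here for the letters that muscle and cell cycle factors are known to read. Sequences are from RefSeq, build GRCm38.p6, whose promoter table matched 11508 of the 17912 genes tested by symbol. They give the 250 bases before the annotated start, 5′ to 3′ on the gene's own strand. In the first 3, from genes that rose, capitals mark E-boxes (CANNTG, read by Myod1 and Myog) and MEF2 sites. CArG boxes (read by SRF) were searched for in Acta1 and Klhl41 and were not searched for in Myog. That search marked 1 in Acta1 and found 0 in Klhl41. The MEF2 search found 0 sites in Myog. Its sequence does hold CTATATTTAT, which differs from the MEF2 site marked in Klhl41 only in the last base. The lack of a marked site therefore does not show that Myog has none. Myog lies on the plus strand at chr1:134289754-134290003, skeletal actin Acta1 on the minus strand at chr8:123894776-123895025, and Klhl41, which stabilises thin filaments, on the plus strand at chr2:69669870-69670119.
Myog: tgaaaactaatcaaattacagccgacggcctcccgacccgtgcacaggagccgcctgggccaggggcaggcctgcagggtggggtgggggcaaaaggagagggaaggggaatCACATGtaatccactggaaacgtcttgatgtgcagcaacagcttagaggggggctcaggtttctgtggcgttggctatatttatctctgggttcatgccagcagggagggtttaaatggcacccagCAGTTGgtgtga
Acta1: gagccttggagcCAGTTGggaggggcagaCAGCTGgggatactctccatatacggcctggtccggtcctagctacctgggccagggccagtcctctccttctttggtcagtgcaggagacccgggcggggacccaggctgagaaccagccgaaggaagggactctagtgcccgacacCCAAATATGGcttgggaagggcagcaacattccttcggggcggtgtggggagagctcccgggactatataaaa
Klhl41: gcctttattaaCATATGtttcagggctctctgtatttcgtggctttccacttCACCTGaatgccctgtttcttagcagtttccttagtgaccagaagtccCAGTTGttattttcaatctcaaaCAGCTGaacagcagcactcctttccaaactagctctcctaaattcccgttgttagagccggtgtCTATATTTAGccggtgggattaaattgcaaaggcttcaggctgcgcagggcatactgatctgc
Over windows of 300 bases, which add 50 bases after the start, CAGCTG was found on either strand in 24.6% of the 1718 windows of genes called and at least 2-fold higher, in 14.4% of the 2179 windows of those at least 2-fold lower, and in 16.2% of the 14724 windows of all genes tested. For CACCTG the shares were 25.9%, 15.7% and 17.9%, and for any CANNTG, which includes both, they were 76.3%, 63.1% and 64.9%. The MEF2 site as searched was rarer, in 1.8%, 0.505% and 0.557%. The CArG box was at 1.63%, 1.65% and 1.41%. A CArG box and a MEF2 site can share letters. These are counts of letters, with no test, and do not show binding.

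Sarcomere genes rose almost without exception. On the thick filament and M-band, 25 of 26 tested genes rose and 0 fell, all 25 by at least 2-fold, with a median log2 fold change of 2.44 against -0.075 over all genes. Embryonic myosin Myh3 stood at 2791, 3697 and 3118 CPM in myoblasts and 7297, 7434 and 7668 CPM in myotubes (log2 fold change 1.22, SE 0.192, adjusted p = 5.22e-05). Neonatal myosin Myh8 stood at 27.4, 33.3 and 25.4 CPM in myoblasts and 524, 519 and 538 CPM in myotubes (log2 fold change 4.20, SE 0.200, adjusted p = 1.22e-10). The fast adult form Myh4 stood at 4.32, 7.52 and 3.6 CPM in myoblasts and 643, 625 and 727 CPM in myotubes (log2 fold change 7.01, SE 0.271, adjusted p = 2.47e-11). In all 3 the myotubes lay above every myoblast library, yet Myh3 was already at 2791 CPM or more in myoblasts. The fast myosins are close paralogs, and how the counting split shared reads is not given. Myh1 and Myh2, the other fast adult forms, rose by 2.21 and 2.77 log2, and the slow form Myh7 by 1.85. Mybpc2, the fast myosin-binding protein C, was at 0, 2 and 1 counts in myoblasts and at 15.4, 15.7 and 17.4 CPM in myotubes, at least 281-fold higher when myoblasts are set to the floor of 3 counts per library. The slow regulatory light chain Myl2 was likewise at the floor in myoblasts and reached 12.5, 9.88 and 14.5 CPM in myotubes, at least 214-fold higher. The alkali light chain Myl4 stood at 604, 819 and 626 CPM in myoblasts and 5770, 6213 and 7831 CPM in myotubes (log2 fold change 3.27, SE 0.201, adjusted p = 1.82e-09), and its myotubes lay far above its myoblasts. The fast regulatory chain Mylpf stood at 1771, 2232 and 1902 CPM in myoblasts and 6771, 7299 and 8397 CPM in myotubes (log2 1.93). Titin (Ttn), the molecular ruler of the sarcomere and the longest of these genes, was the 1 member not called. It stood at 324, 386 and 389 CPM in myoblasts and 638, 500.1 and 430.3 CPM in myotubes (adjusted p = 0.108), so that the groups did not overlap but the myotubes spread widely, with library C the lowest. With the length trend fitted, its log2 fold change was 1.37 (adjusted p = 1.81e-06), and it was called higher with DESeq2 size factors too, at 0.63 (adjusted p = 0.0437).

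Thin filament and Z-disc genes followed the same direction, with 36 of 39 higher, 2 lower and a median of 1.83. Skeletal actin Acta1 gained more CPM than any other gene, from 3841, 5002 and 3918 CPM to 14060, 15600 and 17500 CPM (log2 fold change 1.89, SE 0.233, adjusted p = 5.5e-06). The Z-disc crosslinker Actn2 went from 39.5, 59.98 and 41.6 CPM to 455, 485 and 596 CPM (log2 fold change 3.44, SE 0.183, adjusted p = 3.2e-10), and myotilin (Myot) from 0.366, 0.455 and 0.178 CPM to 11, 11.7 and 13.8 CPM (log2 5.19). Telethonin (Tcap), which caps titin at the Z-disc, rose by 3.54 log2 and the intermediate filament desmin (Des) by 1.53. The troponins moved together, with log2 fold changes of 2.47, 2.77 and 2.16 for the fast forms Tnnc2, Tnni2 and Tnnt3, 2.09 and 2.28 for the slow forms Tnni1 and Tnnt1, and 1.99 for the cardiac form Tnnt2. Klhl41, whose promoter is printed above, went from 183, 215 and 178 CPM to 901, 898 and 917 CPM (log2 2.24). The 2 members that fell were Nebl, under 0.2 CPM throughout, and Pdlim5, an enigma family protein (log2 -0.30), whose call was lost with DESeq2 size factors, with the length trend taken out and without myoblast library A, myoblast library B or myotube library C (adjusted p = 0.125, 0.482, 0.066, 0.054 and 0.111).

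**Figure D3:**
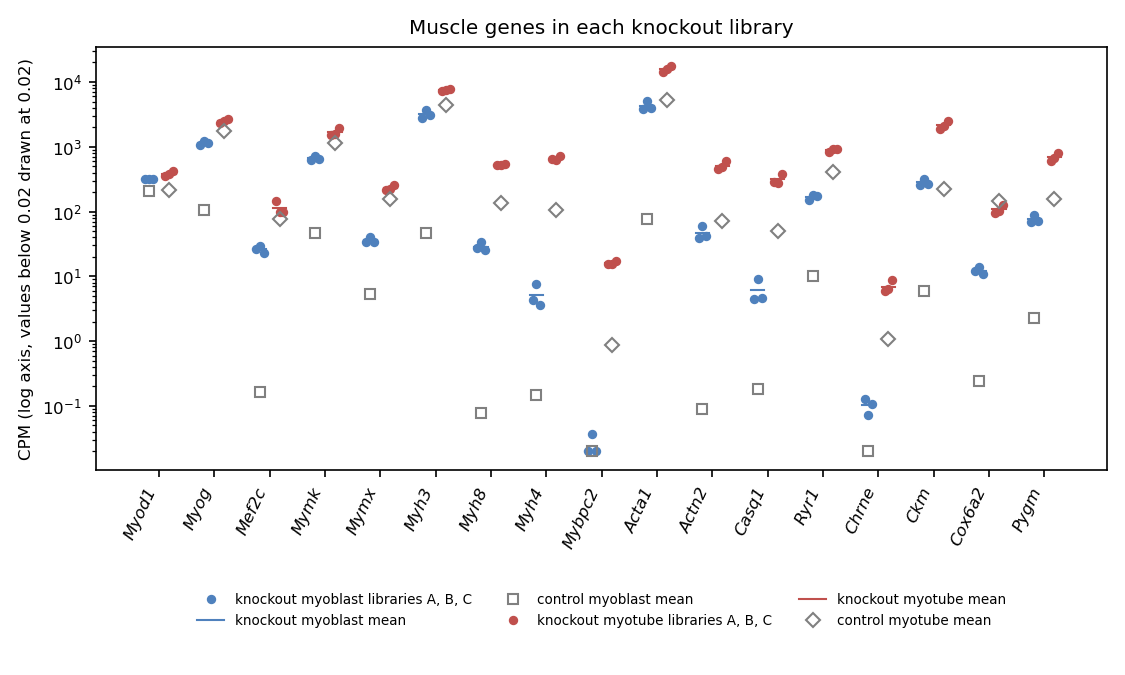
CPM on a log axis of 17 muscle genes in each knockout myoblast library (blue) and myotube library (red), with bars at the mean and open grey symbols for the control means. Except for Myod1, myotubes sit well above myoblasts, and for most genes the knockout myoblasts start above the control myoblasts.

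Among fusion genes, 13 of 22 rose and 8 fell. Both muscle-specific fusion proteins rose without overlap. Myomaker (Mymk) went from 636, 728 and 648 CPM to 1497, 1603 and 1936 CPM (log2 fold change 1.32, SE 0.167, adjusted p = 4.99e-06). Myomixer (Mymx) went from 34.4, 40.7 and 34 CPM to 213, 225 and 253 CPM (log2 fold change 2.66, SE 0.125, adjusted p = 1.27e-11). Caveolin-3 (Cav3), the muscle caveolin, rose by 2.68 log2. Elmo1, a partner of the Dock proteins, rose by 2.89 but stayed low, from 0, 5 and 4 counts in myoblasts to 28, 32 and 13 in myotubes. Those that fell included the adhesion gene Kirrel (log2 -1.27), the Rac activator Dock1 (log2 -0.87) and Itgb1, the beta-1 integrin (log2 -0.63).

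Genes that couple excitation to calcium release rose in 19 of 24 cases and fell in 1, the calcium-binding protein gene Asph (log2 -0.99), with a median of 1.80. The calcium store protein calsequestrin-1 (Casq1) stood at 4.54, 9.16 and 4.64 CPM in myoblasts and 282, 281 and 376 CPM in myotubes (log2 fold change 5.67, SE 0.257, adjusted p = 1.08e-10). Parvalbumin (Pvalb), the calcium buffer of fast fibres, stood at 0.581, 0.801 and 0.658 CPM in myoblasts and 16.3, 17.3 and 19.3 CPM in myotubes (log2 fold change 4.68, SE 0.169, adjusted p = 6.3e-13). The release channel Ryr1 went from 149, 182 and 174 CPM to 839, 908 and 931 CPM (log2 2.40), and its voltage sensor Cacna1s rose by 2.27. None of these groups overlapped. The muscle sodium channel Scn4a rose by 3.53 and the chloride channel Clcn1 by 2.79, the latter to 6.32, 5.005 and 6.73 CPM.

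At the postsynapse, 10 of 14 genes rose and 2 fell. The adult receptor subunit Chrne went from 0.129, 0.0728 and 0.107 CPM to 5.92, 6.34 and 8.66 CPM (log2 fold change 6.07, SE 0.347, adjusted p = 3.93e-10), and the embryonic subunit it replaces in mature muscle, Chrng, also rose (log2 2.15). The esterase Ache (log2 3.98) and its collagen tail Colq (log2 5.06) rose with them, while agrin (Agrn, log2 -0.38) and utrophin (Utrn, log2 -0.34) fell. Both calls were lost with the length trend taken out (adjusted p = 0.338 and 0.265), and that on Utrn also with DESeq2 size factors (adjusted p = 0.118), the DESeq2 Wald test (adjusted p = 0.133), no filter on low counts (adjusted p = 0.104), and without myoblast library B or C or myotube library B or C (adjusted p between 0.0616 and 0.162). The dystrophin complex was mixed, with 8 of 15 higher and 6 lower, or 3 lower with the length trend fitted. Dystrophin itself (Dmd) was low, at 0.344, 0.401 and 0.32 CPM in myoblasts and 4.32, 2.93 and 2.66 CPM in myotubes (log2 fold change 3.21, SE 0.33, adjusted p = 1.51e-07), and the syntrophins Sntb1 and Sntb2 fell (log2 -1.11 and -1.33). Of 9 energy buffer genes 8 rose and 1 fell: muscle creatine kinase Ckm rose from 260.3, 321 and 267 CPM to 1868, 2059 and 2537 CPM (log2 fold change 2.93, SE 0.209, adjusted p = 1.27e-08), its mitochondrial partner Ckmt2 by 6.35 log2 and myoglobin (Mb), the oxygen store, by 1.90.

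Every DNA replication and mitosis gene tested fell. On the replication list 44 of 44 fell, with a median of -1.29 log2, and on the mitosis list 39 of 39, with a median of -2.29 and all of them by at least 2-fold. Mcm5, part of the replicative helicase, stood at 149, 138 and 151 CPM in myoblasts and 47.1, 53.6 and 57.4 CPM in myotubes (log2 fold change -1.47, SE 0.191, adjusted p = 8.46e-06). Cdk1, the kinase that drives mitosis, stood at 189, 169.9 and 194 CPM in myoblasts and 48.7, 53.9 and 45.1 CPM in myotubes (log2 fold change -1.90, SE 0.104, adjusted p = 4.89e-11). Mki67, the common proliferation marker, stood at 146, 142 and 138 CPM in myoblasts and 22.5, 15.2 and 12 CPM in myotubes (log2 fold change -3.09, SE 0.282, adjusted p = 2.24e-07). None of these groups overlapped, but the transcripts did not vanish: Mcm5 and Cdk1 remained at 45.1 CPM or more in every myotube library. Control cells ended lower in both, Mcm5 from 236 ± 21.3 to 11.7 ± 4.22 CPM (mean ± SD) and Cdk1 from 177 ± 3.6 to 16.6 ± 2.81 CPM (mean ± SD). Mki67 ended near the same mean, 17.1 CPM in control and 16.6 in the knockout. Anln and Cenpe ended higher in control, at means of 22.8 against 19.9 and 6.9 against 4.45 CPM. In myotubes the knockout mean exceeded that of control for 37 of 44 replication and 32 of 39 mitosis genes. Among genes of at least 5 CPM, the largest falls on the mitosis list were in the spindle motor Kif11 (log2 -3.27), the contractile ring protein Anln (log2 -3.20) and the kinetochore motor Cenpe (log2 -3.15); on the replication list they were in the polymerase subunit Pola1 (log2 -2.52), the ubiquitin ligase adaptor Dtl (log2 -2.14) and the origin protein Orc1 (log2 -2.08).

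The promoters of 3 genes that fell are shown with the letters known from cell cycle genes. Mcm7, another helicase subunit, has 2 annotated starts, of which the one at the lower coordinate, downstream on its strand, is shown. The letters are CHR elements (TTTGAA or TTCGAA) and CCAAT boxes in Cdk1 and in Cdc20, the activator of the anaphase ligase. In Mcm7 they are E2F sites (TTCCCGC) and CCAAT boxes. The windows are chr10:69352913-69353162 on the minus strand, chr4:118437344-118437593 on the minus strand and chr5:138171267-138171516 on the minus strand, and capitals mark these letters on either strand.
Cdk1: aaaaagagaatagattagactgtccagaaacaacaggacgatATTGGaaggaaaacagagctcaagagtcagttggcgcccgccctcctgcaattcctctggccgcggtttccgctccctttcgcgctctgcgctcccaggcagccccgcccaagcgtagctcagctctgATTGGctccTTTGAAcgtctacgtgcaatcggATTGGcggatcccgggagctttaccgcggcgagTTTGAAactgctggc
Cdc20: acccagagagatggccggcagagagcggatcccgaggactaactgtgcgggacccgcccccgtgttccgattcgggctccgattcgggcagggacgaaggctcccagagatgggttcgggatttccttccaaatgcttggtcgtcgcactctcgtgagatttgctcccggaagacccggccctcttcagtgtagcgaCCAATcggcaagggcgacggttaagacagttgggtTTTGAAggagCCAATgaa
Mcm7: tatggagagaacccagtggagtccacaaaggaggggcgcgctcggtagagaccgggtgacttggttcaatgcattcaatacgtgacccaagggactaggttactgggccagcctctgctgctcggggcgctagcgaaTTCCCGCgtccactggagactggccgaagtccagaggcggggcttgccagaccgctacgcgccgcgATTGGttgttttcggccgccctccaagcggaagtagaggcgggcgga
CHR letters were in 75.8% of the 33 windows of mitosis genes, in 17.1% of the 41 of replication genes, in 18.5% of those of all genes at least 2-fold lower and in 14% over all genes tested. E2F letters were in 0%, 41.5%, 10.5% and 7.66% of the same windows, and CCAAT in 72.7%, 58.5%, 40.2% and 37.4%. Mitosis and replication genes thus differed in which of the letters their windows held, and no test was run.

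Genes that set the cell cycle exit moved in both directions, 7 up and 15 down of 24. The CDK inhibitor p21 (Cdkn1a) stood at 1492, 1688 and 1513 CPM in myoblasts and 4090, 4319 and 5152 CPM in myotubes (log2 fold change 1.53, SE 0.102, adjusted p = 5.97e-10). The related inhibitor p57 (Cdkn1c) stood at 1.87, 2.73 and 2.49 CPM in myoblasts and 38.2, 44.3 and 43.6 CPM in myotubes (log2 fold change 4.15, SE 0.599, adjusted p = 2.73e-05). Cyclin D1 (Ccnd1), which drives entry into S phase, stood at 148, 127 and 142 CPM in myoblasts and 18.1, 19.8 and 13.5 CPM in myotubes (log2 fold change -3.01, SE 0.206, adjusted p = 7.72e-09). No group overlapped in these 3 genes, and p21 was high in myoblasts already. In control it went from 237 ± 19.5 to 2362 ± 172 CPM (mean ± SD). Cyclin D3 (Ccnd3), kept in muscle, rose by 1.12 log2, cyclin E2 (Ccne2) fell by 3.09, and the retinoblastoma gene Rb1 stood at 128, 136 and 128 CPM in myoblasts and 134, 98.9 and 96.1 CPM in myotubes with no call (adjusted p = 0.27). Of 16 p53 genes, 9 rose and 0 fell, led by the apoptosis gene Bbc3 (log2 1.29).

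Respiratory chain subunits rose in a body, by small amounts. Of 36 complex I genes 35 rose and 0 fell, with a median of 0.66 log2, and of 42 genes of complexes II to V 35 rose and 3 fell, with a median of 0.51. Many are short genes, and with the length trend taken out the counts were 31 and 29 and the medians 0.49 and 0.38. Ndufb11, an accessory subunit, stood at 133, 130.2 and 132 CPM in myoblasts and 282, 295 and 334 CPM in myotubes (log2 fold change 1.21, SE 0.0881, adjusted p = 1.83e-09). The muscle isoforms of cytochrome oxidase moved by much more and without overlap. Cox6a2 went from 11.9, 14 and 10.8 CPM to 96.6, 103 and 126 CPM (log2 fold change 3.15, SE 0.17, adjusted p = 2.01e-10). Cox8b went from 1.42, 1.07 and 1.21 CPM to 20.01, 23.7 and 26.5 CPM (log2 fold change 4.25, SE 0.25, adjusted p = 3.86e-10). Cox7a1 went from 0.925, 0.528 and 0.712 CPM to 7.99, 7.75 and 10.6 CPM (log2 3.61). Cytochrome c (Cycs) fell (log2 -0.61), a gene with processed copies elsewhere, as did Cox8a, the broadly expressed isoform (log2 -0.42).

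Glycolytic and glycogen genes rose in 14 of 28 cases and fell in 7, or 4 with DESeq2 size factors. Several muscle forms were among those that rose. Muscle phosphorylase (Pygm) went from 70.2, 87.2 and 72.8 CPM to 604, 665 and 802 CPM (log2 fold change 3.17, SE 0.131, adjusted p = 4.36e-12), the muscle mutase Pgam2 rose by 3.22 log2, the muscle phosphofructokinase Pfkm by 2.39 and the insulin-responsive transporter Slc2a4 by 1.64, while the liver-type Pfkl (log2 -0.76) and the general transporter Slc2a1 (log2 -0.79) fell. Several glycolysis genes have near-identical processed copies in the genome, so their counts are uncertain and Gapdh is not interpreted. Fatty acid genes were split 12 up and 6 down of 24, with 3 down under DESeq2 size factors, and their uptake proteins diverged: the muscle binding protein Fabp3 (log2 2.82) and the transporter Cd36 (log2 1.76) rose, and lipoprotein lipase (Lpl, log2 -1.76) and the carnitine transferase Cpt1a (log2 -1.05) fell. The tricarboxylic acid cycle rose in 8 and fell in 2 of 17 genes, and its median of 0.11 became -0.05 with library totals, with 5 lower. The coactivator Ppargc1a, known for driving mitochondrial genes, stood at 7.12, 7.47 and 6.66 CPM in myoblasts and 9.58, 7.95 and 5.86 CPM in myotubes and was not called (adjusted p = 0.676).

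BMP and Id genes fell or were not called. That list had 14 of 18 genes lower and 0 higher, with a median of -1.12 log2. Id3, which binds the partners of Myod1 and so blocks it, stood at 290.3, 243 and 257 CPM in myoblasts and 47.5, 46.9 and 42.4 CPM in myotubes (log2 fold change -2.53, SE 0.141, adjusted p = 2.01e-10), and Id1, Id2 and Id4 had log2 fold changes of -1.30, -1.68 and -1.55. The BMP antagonist Grem1 stood at 121, 105 and 99.8 CPM in myoblasts and 9.63, 6.29 and 5.29 CPM in myotubes (log2 fold change -3.93, SE 0.244, adjusted p = 3.21e-09). The feedback inhibitor Smad6 fell by 1.89 log2. Id4 was low throughout, at 35, 20 and 30 counts in myoblasts and 8, 17 and 6 in myotubes. Myotubes lay under every myoblast library in all of these. The Notch list had 8 of 15 lower and 1 higher, with Jag1, a ligand, at a log2 fold change of -1.04 and the target Hey1 at -0.59. In the TGF-beta family, 8 rose and 10 fell of 22, 5 rising with library totals. The latent binding protein Ltbp2 fell by 2.80 log2, and follistatin (Fst), which binds myostatin, rose by 1.27. Among IGF genes, 5 rose and 4 fell of 14: the growth factor Igf2 rose by 0.82 log2, Igfbp4 by 1.94, and Igfbp2 fell from 533, 484 and 546 CPM to 112, 102 and 117 CPM (log2 fold change -2.24, SE 0.126, adjusted p = 1.23e-10). FGF genes were split 8 up and 7 down of 17, with the secreted factor Fgf21 higher (log2 2.23) and the growth factor Fgf7 lower (log2 -3.14). Wnt genes were split 8 up and 10 down of 24, with the ligand Wnt10a higher (log2 2.24) and the secreted antagonist Sfrp2 lower (log2 -1.82). Over all genes tested 29.8% rose and 35.6% fell, and the counts of the TGF-beta, IGF and Wnt lists were near those shares.

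Matrix genes fell more often than they rose, in 20 against 7 of 32, with a median of -0.36 log2, and 16 fell with the length trend taken out. Fibronectin (Fn1), the main adhesive matrix protein, stood at 5095, 5900 and 5628 CPM in myoblasts and 4295, 4631 and 4321 CPM in myotubes (log2 fold change -0.33, SE 0.078, adjusted p = 0.00135). With the length trend taken out, its change was 0.00 (adjusted p = 0.995), and with DESeq2 size factors -0.20 (adjusted p = 0.0529). Collagen III (Col3a1) stood at 4541, 4947 and 4615 CPM in myoblasts and 4957, 5449 and 4573 CPM in myotubes, with overlapping groups and no call (adjusted p = 0.484), against 0.36 (adjusted p = 0.0212) with the length trend taken out. The alpha-1 chain of collagen I (Col1a1) stood at 370.3, 571 and 345 CPM in myoblasts and 1293, 1526 and 1494 CPM in myotubes (log2 fold change 1.75, SE 0.176, adjusted p = 4.47e-07), although its partner chain Col1a2 fell (log2 -0.86). The 2 chains of 1 trimer thus moved apart in these libraries. The collagen-binding proteoglycan Fmod fell from 346, 374 and 296 CPM to 71.5, 70.1 and 69.3 CPM (log2 -2.27), the crosslinking enzyme Lox by 2.08 log2, and the small proteoglycans Dcn and Lum rose by 3.18 and 4.27, Lum from under 0.2 CPM. Of 16 proteases and inhibitors, 4 rose and 7 fell, including Timp3 (log2 -1.13) and Timp1 (log2 -1.21). Of 17 SRF and YAP targets 4 rose and 8 fell. Smooth muscle actin (Acta2) stood at 6841, 7072 and 6858 CPM in myoblasts and 6737, 7240 and 7714 CPM in myotubes and was not called (adjusted p = 0.569).

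**Figure D4:**
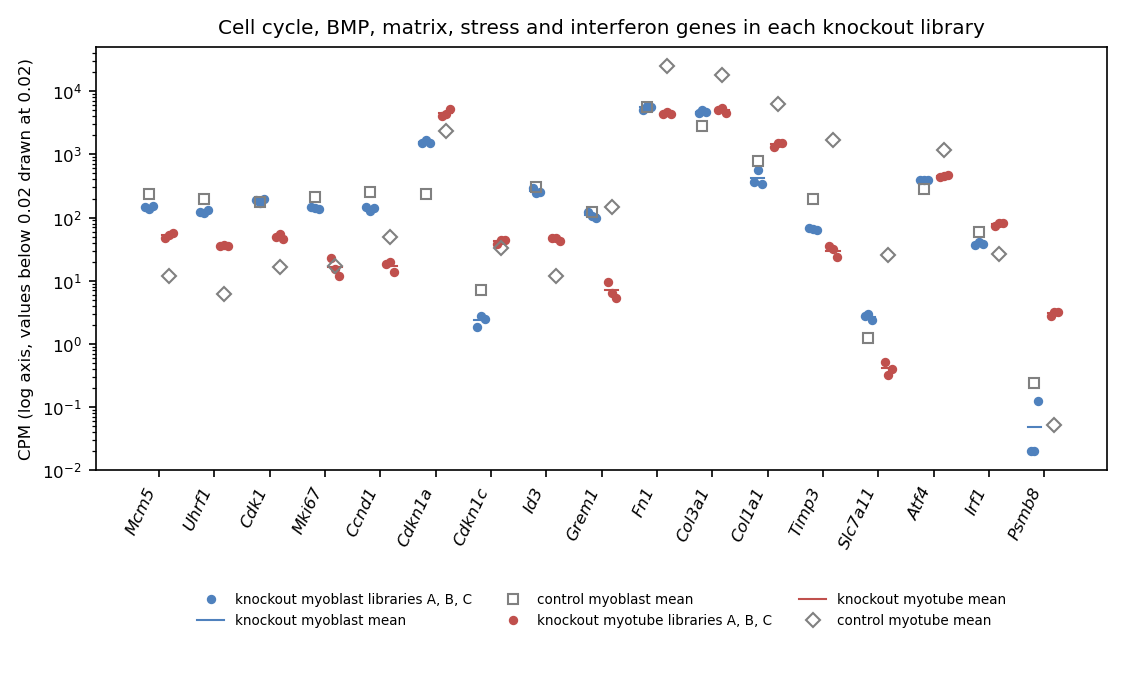
CPM on a log axis of 17 cell cycle, BMP, matrix, stress and interferon genes in each knockout myoblast library (blue) and myotube library (red), with bars at the mean and open grey symbols for the control means. Cell cycle genes, Id3 and Grem1 lie lower in myotubes, p21 and p57 higher, and Fn1, Col3a1 and Atf4 stay near their myoblast level where the control means rise.

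Stress, secretory and interferon genes went different ways. Integrated stress response genes moved little: 9 rose and 6 fell of 24, none rose by 2-fold, and the median was 0.08. The counts are not firm, since they were 3 and 11 with library totals, 4 and 7 with the length trend, and 5 rose without myoblast library C and 5 without myotube library C. Atf4, the factor at the centre of that response, stood at 389.5, 398 and 398 CPM in myoblasts and 430.4, 458 and 474 CPM in myotubes (log2 fold change 0.20, SE 0.0579, adjusted p = 0.00591), a call that was lost with library totals and with the length trend taken out (adjusted p = 0.663 and 0.287). The cystine transporter Slc7a11 fell from 2.8, 2.95 and 2.35 CPM to 0.512, 0.318 and 0.397 CPM (log2 fold change -2.71, SE 0.242, adjusted p = 2.4e-08). ER chaperones fell in 14 of 19 cases and rose in 1 (Herpud1, log2 0.94), with Hspa5, the main chaperone, at 736, 773 and 763 CPM in myoblasts and 468, 448 and 395 CPM in myotubes (log2 fold change -0.79, SE 0.0955, adjusted p = 1.11e-06) and Hsp90b1, the HSP90 of the ER, at a log2 fold change of -1.64. Interferon and antigen presentation genes rose in 14 of 20 cases and fell in 2 (among them Ifih1, log2 -1.07, with overlapping groups and not called with the length trend taken out, adjusted p = 0.0587, with the DESeq2 Wald test, adjusted p = 0.0515, or without myoblast library A or B or myotube library B or C), with a median of 1.01. The interferon factor Irf1 stood at 37.1, 41.3 and 38.3 CPM in myoblasts and 74.1, 80.7 and 81.7 CPM in myotubes (log2 fold change 1.02, SE 0.0998, adjusted p = 8.2e-08). The immunoproteasome subunit Psmb8 stood at 0, 0.0182 and 0.125 CPM in myoblasts and 2.73, 3.21 and 3.18 CPM in myotubes (log2 fold change 5.85, SE 0.512, adjusted p = 1.92e-08). The peptide transporter partner Tapbp rose by 0.95 log2. Of the leukocyte markers Itgam rose and Csf1r and Cd68 fell, and the part of such cells in the interferon result was not tested. Of 23 cholesterol genes 5 rose and 11 fell: the late enzymes Dhcr7 (log2 1.92) and Ebp (log2 1.42) rose.

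On each list of chromatin and RNA genes more members fell than rose with TMM factors. That was also so over all genes tested, of which 35.6% fell and 29.8% rose. Which side is larger rests on the processing for some of the lists. With DESeq2 size factors histone deacetylases were 5 up and 4 down and ribosome biogenesis genes 11 up and 9 down. With the length trend taken out splicing regulators were 7 up and 6 down. Of 11 PRC2 genes, the complex that writes a silencing mark on histone H3, 8 fell and 2 rose. Its enzymes moved apart, Ezh2 from 52.9, 49.8 and 54.4 CPM to 19.9, 17.5 and 13.7 CPM (log2 fold change -1.62, SE 0.151, adjusted p = 8.22e-08) and Ezh1, the form of resting cells, up by 0.89 log2. The core subunit Suz12 went from 66.5, 64.6 and 57.4 CPM to 24.2, 13.2 and 12.2 CPM (log2 -1.92), with library A highest of the myotubes. SWI/SNF had 10 lower and 5 higher of 20, or 2 higher with library totals, and its muscle subunit Smarcd3 rose (log2 0.64). Among DNA methylation genes, 6 fell and 2 rose of 13, led by Uhrf1, which brings the maintenance enzyme to replicated DNA, at 122, 116 and 129 CPM in myoblasts and 35.8, 36.8 and 35.3 CPM in myotubes (log2 fold change -1.77, SE 0.127, adjusted p = 2.27e-09). Histone deacetylases split 4 up and 6 down of 14. Muscle splicing regulators split 6 up and 7 down of 14, and their median of -0.27 was 0.10 with the length trend. Rbm38, which stabilises p21 and myogenin messages, rose (log2 2.76), Srpk3, a muscle kinase of splicing factors, rose (log2 1.99), and Mbnl1, the splicing factor trapped in myotonic dystrophy, fell from 248, 235 and 225 CPM to 68.6, 43.6 and 39.5 CPM (log2 fold change -2.22, SE 0.287, adjusted p = 9.02e-06). Ribosome biogenesis had 9 higher and 11 lower of 27, near the background on both sides, with the nucleolar proteins Ncl (log2 -1.11) and Npm1 (log2 -1.42) among those that fell.

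The largest rises by fold, among genes of at least 5 CPM, also included Ddit4l, an mTOR inhibitor, from 3, 1 and 2 counts to 14.9, 13 and 16.1 CPM, at least 255-fold higher. Card14, a signalling scaffold, and Fxyd6, a sodium pump regulator, were also at the floor in myoblasts and at least 100.4-fold and 113-fold higher in myotubes. Crym, which binds thyroid hormone, rose by 6.24 log2. The largest falls included the water channel Aqp1, at 21.9, 12.6 and 17.9 CPM in myoblasts and 0.102, 0.134 and 0.188 CPM in myotubes (log2 fold change -6.95, SE 0.345, adjusted p = 2.26e-10). The adhesion receptor Selp stood at 45.4, 43.9 and 40.8 CPM in myoblasts and 0.666, 0.82 and 0.586 CPM in myotubes (log2 fold change -5.96, SE 0.167, adjusted p = 4.76e-14). Ly6a, the surface antigen Sca-1, fell by 4.67 log2, and Fosl1, an AP-1 factor of growing cells, by 3.91. By amount, the imprinted noncoding RNA H19 gained most after Acta1, from 14160, 14600 and 14490 CPM to 23320, 23570 and 26300 CPM (log2 fold change 0.76, SE 0.0832, adjusted p = 3.48e-07). Cytoplasmic actin Actb lost most, from 3644, 3290 and 3413 CPM to 1417, 1517 and 1462 CPM (log2 fold change -1.24, SE 0.0969, adjusted p = 4.61e-09), followed by vimentin (Vim, log2 -0.59). Skeletal and cytoplasmic actin thus moved in opposite directions, and as close paralogs they can share reads. Of the 164 genes named here with a fitted value, 59 overlap another annotated gene. Mybpc2, Myl2, Card14, Myl4, Des, H19 and Fn1 overlap another annotated gene on the same or the other strand, and their counts are uncertain to that extent.

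Set beside the control, the knockout response was smaller for most contractile, replication and mitosis genes. The difference of responses (knockout minus control, tested as an interaction) was called higher for 3623 genes (20.2%) and lower for 5355 (29.9%), so that 40.4% of the calls were higher, against 52% with DESeq2 size factors. It was lower for 21 and higher for 2 of 26 thick filament genes, whose median response was 2.44 log2 in the knockout, 6.15 in control and 7.07 in the overexpressor. It was lower for 31 and higher for 5 of 39 thin filament genes. Start and end are given side by side. In myoblasts, the mean CPM of the knockout exceeded that of control for 25 of 26 thick filament genes, and in myotubes for 25; for thin filament genes the numbers were 35 and 36 of 39. Myh3 in control cells went from 47.2 ± 12 to 4410 ± 497 CPM (mean ± SD) and Acta1 from 76.8 ± 24.5 to 5337 ± 489.8 CPM (mean ± SD), so that knockout myotubes ended above control myotubes in both, and the differences of responses were -5.32 and -4.23 log2 (adjusted p = 8.91e-10 and 8.93e-08). Myog gave -2.91 (adjusted p = 3.47e-09). Lines were not tested against each other within a stage. The fall of replication genes was smaller than in control for 38 of 44 genes and larger for 1, with medians of -1.29 and -2.40, and that of mitosis genes was smaller for 29 of 39, with medians of -2.29 and -3.62. For Mcm5 the difference was 2.87 log2, SE 0.274 (adjusted p = 6.27e-07).

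Stress response and matrix genes had higher median responses in control than in the knockout or the overexpressor. Of 24 stress response genes 24 were called higher in control, and of 32 matrix genes 21, against 33.9% of all genes tested. Stress response genes had a median of 2.71 log2 in control, 0.08 in the knockout and 0.61 in the overexpressor, and the difference was called lower for 23 of 24 and higher for 0. Atf4 went from 286 ± 2.03 to 1153 ± 19.9 CPM (mean ± SD) in control, a difference of -1.81 (adjusted p = 9.33e-12), and Slc7a11 from 1.25 ± 0.227 to 25.4 ± 1.77 CPM (mean ± SD), a difference of -7.06 (adjusted p = 7.36e-12). Matrix genes had a median of 1.19 in control, -0.36 in the knockout and 0.15 in the overexpressor, with the difference lower for 27 of 32 and higher for 2. With the length trend taken out it was lower for 26. The difference itself ran with length, from a median of 0.036 log2 over genes up to 1 kb to -0.447 over those above 8 kb. Fn1 went from 5626 ± 449 to 24790 ± 1234 CPM (mean ± SD) and Timp3 from 198 ± 10.4 to 1703 ± 91.7 CPM (mean ± SD) in control, differences of -2.47 and -4.24 (adjusted p = 8.86e-12 and 9.42e-12). Basement membrane collagen Col15a1 fell in the knockout, from 7.01, 6.68 and 5.96 CPM to 1.31, 1.74 and 1.44 CPM, and rose in control, from 0.953 ± 0.0321 to 269 ± 35.2 CPM (mean ± SD), a difference of -10.26 (adjusted p = 3.13e-17). Grem1 in control went from 121 ± 11.8 to 145 ± 18.1 CPM (mean ± SD), and the difference was -4.19 (adjusted p = 6.1e-08). In the overexpressor, Timp3, Grem1 and Fn1 also fell, by 2.91, 1.98 and 0.98 log2, Timp3 and Fn1 further than in the knockout, and Col15a1 rose by 4.23.

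In the opposite sense, interferon genes had a median of -0.54 in control, 1.01 in the knockout and 0.24 in the overexpressor. Of 20 differences 12 were higher and 2 lower. Knockout means exceeded those of control for 2 of these 20 genes in myoblasts and for 12 in myotubes, so that most started lower. Irf1 went from 58.6 ± 7.36 to 26.3 ± 0.979 CPM (mean ± SD) in control, a difference of 2.17 (adjusted p = 8.98e-10). Ddit4l was already at 5.89 CPM in control myoblasts and at 6.92 in control myotubes, a difference of 8.28 log2 in the fit (adjusted p = 3.86e-13), which is no bound since the knockout myoblasts were at the floor. The smooth muscle calponin Cnn1 went from 13.8, 15.4 and 15.4 CPM to 6.52, 5.49 and 7.88 CPM in the knockout and from 29.3 ± 1.14 to 0.248 ± 0.0665 CPM (mean ± SD) in control, a difference of 5.73 (adjusted p = 3.69e-06). For glycolysis 17 of 28 and for cholesterol 18 of 23 differences were higher. For complex I the count of higher differences was 13 of 36 with none lower, but 22 with DESeq2 size factors and 8 without knockout myotube library C or without control myotube library C.

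**Figure D5:**
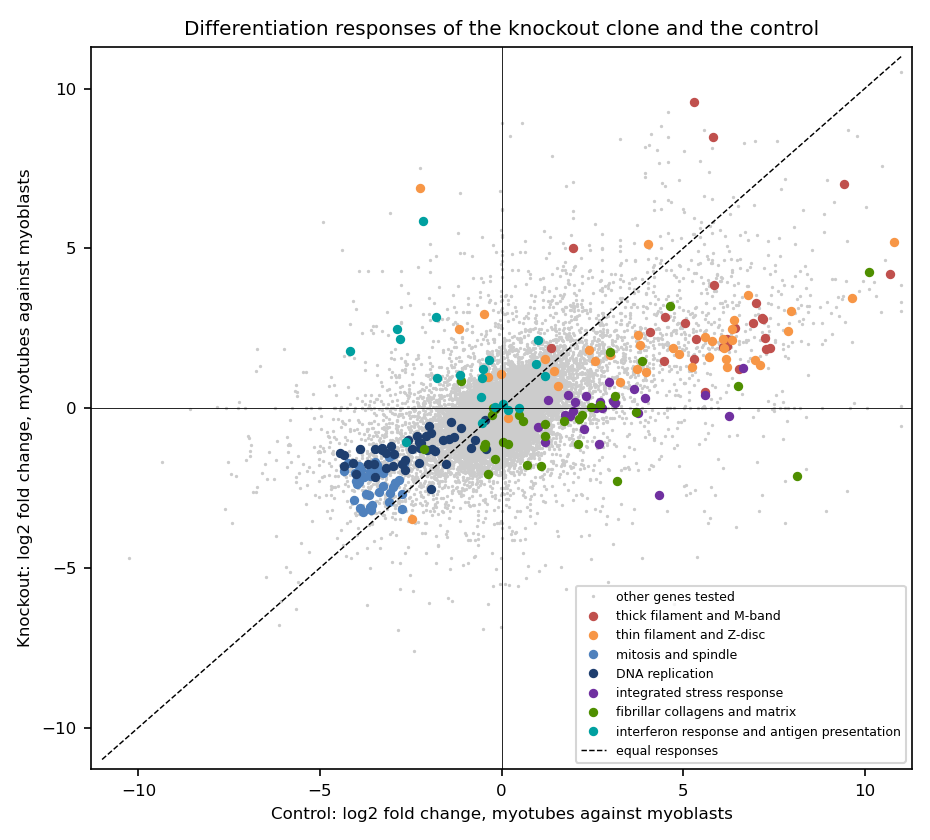
Log2 fold change of myotubes against myoblasts in control (x axis) and in the knockout (y axis) for all genes tested (grey), with 7 gene lists in colour and a dashed line at equal responses. Most sarcomere genes lie on the right under the line, most cell cycle genes on the lower left above it, most stress response genes along a knockout change near 0, and the interferon genes spread to the upper left.

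Against the overexpressor clone, the difference of responses was called higher for 4017 genes (22.4%) and lower for 4353 (24.3%), so that 48% of the calls were higher, against 38.1% with library totals. It was lower for 23 of 26 thick filament and 30 of 39 thin filament genes, higher for 12 of 20 interferon genes and lower for 13 of 24 stress response and 20 of 32 matrix genes, with 6 matrix genes higher. The 2 comparisons share the knockout libraries and are not independent. The 2057 genes at least 2-fold higher in the knockout and the 2709 (15.1%) at least 2-fold higher in control shared 1249, which is 60.7% of the first and 46.1% of the second, and 93 of the 2057 were at least 2-fold lower in control. The 2741 genes at least 2-fold lower in the knockout and the 2430 (13.6%) in control shared 1110, or 40.5% and 45.7%, and 144 of the 2741 were at least 2-fold higher in control.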

How the data were processed

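RNA-seq of polyadenylated RNA (TRIzol extraction) was available for 18 libraries of C2C12 cells, 3 in each of 6 groups (3 lines, myoblasts and day 3 myotubes), grouped by their titles. Of the 2 tables the authors deposited, raw counts by gene were used and variance-stabilised values were not. Per the submitters' processing notes, the tools were FastQC 0.11.7, STAR 2.7.9a, featureCounts, Subread 2.0.3 and DESeq2 1.32.0, with build mm10. The annotation release, the strand setting and the treatment of shared reads are not given in the sources used here. The counts carried gene identifiers, of which 55190 of 55450 were named through GENCODE M21. The 260 others held 0.00589% of the counts. Totals ran from 41544358 to 79140702 counts per library, with a floor of 3 counts, and floors cover counting error only.

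Genes were tested with the quasi-likelihood test of edgeR 4.0.16 (limma 3.58.1, R 4.3.3), with TMM factors and filterByExpr, in 1 fit with a coefficient per group, 12 residual degrees of freedom and Benjamini-Hochberg adjustment over 17912 genes at 0.05. The standard error of a fold change was taken from its F statistic. The difference of responses was an interaction contrast. The fit was also run on simulated counts with known changes, a common spread for all libraries and no length trend. No result here rests on that run. Alternatives were DESeq2 1.42.0 (size factors and its Wald test), library totals, no filter, a replicate block, a test against a 2-fold change, only the groups compared, each library left out, and, added after seeing the data, a smooth trend over exon length removed per library.

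Genes were named by these rules: the 12 highest and 12 lowest fold changes with at least 5 CPM, no overlap and an ordinary symbol; the 6 largest rises and falls in CPM; the first 2 and up to 3 extreme members of each list at each end; the 8 highest and 8 lowest differences from control; and the genes of the targeted cluster. Of the 164 named, 33 lie outside the rules and were chosen after their values were seen. Some genes that meet the rules are not reported here. The members and lists were chosen with earlier results of these data known. Whether the letters A, B and C pair the libraries was checked by the correlation of deviations from the group means. Same-letter values of 0.0339, -0.00204 and -0.00805 showed no pairing, which this check cannot exclude. Motifs were searched on both strands of RefSeq promoters.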

Additional observations from a re-analysis of the deposited data

Results flagged for a closer look

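A selection of 13 named genes whose knockout response differed from that of control by the interaction test is collected here. Each is given as knockout minus control on the log2 scale. Other named genes, among them Actn2, Mef2c and Pax7, also passed that test. Contractile genes and their regulator had smaller rises, with Myh3 at -5.32, Acta1 at -4.23 and Myog at -2.91. The helicase gene Mcm5 fell less, at 2.87, and so did the calponin Cnn1, at 5.73. Matrix and signalling genes stood lower against control, with Col15a1 at -10.26, Timp3 at -4.24, Grem1 at -4.19 and Fn1 at -2.47; Timp3, Grem1 and Fn1 fell in the overexpressor too. Stress response genes stood at -7.06 for Slc7a11 and -1.81 for Atf4. In the other direction, Irf1 stood at 2.17 and Ddit4l, whose knockout myoblasts are at the floor, at 8.28. The clone and the edit cannot be told apart in any of these.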

How the results depend on the processing

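The counts of called genes stayed within 1.5 times of the reported ones under every alternative run except the test against a 2-fold change. That test gave 1305 genes higher and 1295 lower in knockout myotubes, 766 and 1152 for the difference from control, and 380 and 782 for the difference from the overexpressor. Leaving out 1 library at a time gave 4846 to 5237 genes higher and 5624 to 6395 lower, 3237 to 3647 and 4743 to 5587 for the difference from control, and 3389 to 4288 and 3594 to 4792 for that from the overexpressor. The correlation check showed no pairing of the libraries by letter, and the labels do not say. With the replicate block the counts were 5182 and 6198, 3425 and 5056, and 3785 and 3935, respectively. The block ended the call on Utrn (adjusted p = 0.0546). With the length trend removed the counts were 5050 and 6486, 3794 and 5229, and 4309 and 4140. Of 170 gene results past the threshold, 128 stayed past it in the same direction under every alternative run. The sign turned for Fn1 and Utrn with the length trend removed (0.0017 and 0.079 log2). It also turned for 4 genes that were not called: Acta2 (-0.11 with library totals and -0.089 with the length trend removed), Col3a1 (-0.081 with library totals), Mef2a (0.025 with the length trend removed) and Ppargc1a (-0.022 with library totals and -0.034 without myotube library A, within -0.034 to 0.31 over the libraries left out). Scaling moves every gene by 1 shift and the length trend by its length; other causes of these changes were not tested. With 3 libraries a side an exact permutation test of 1 gene cannot go below p = 0.1, so calls rest on the spread shared across genes.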

Other observations

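Further gene groups of the knockout clone are given here, to be read against 29.8% higher and 35.6% lower over all genes tested. Of 16 chemokine and cytokine genes 8 fell, all by at least 2-fold, and 3 rose. Ccl2, which draws monocytes, stood at 33.6, 28 and 31.9 CPM in myoblasts and 6.81, 6.46 and 4.62 CPM in myotubes (log2 fold change -2.38, SE 0.209, adjusted p = 3.96e-08). The neutrophil attractant Cxcl5 fell by 2.70 log2 and Il6 by 3.76, whereas Il15, a cytokine that muscle is known to make, rose by 2.76. Il15 was low, at 3, 7 and 13 counts in myoblasts and 52, 43 and 68 in myotubes. No myotube value of Ccl2 reached a myoblast value. Of 19 genes of the FoxO and protein breakdown list 13 rose and 3 fell. The muscle ubiquitin ligase MuRF1 (Trim63) stood at 14.4, 18.5 and 15.1 CPM in myoblasts and 99.4, 106 and 112 CPM in myotubes (log2 fold change 2.73, SE 0.103, adjusted p = 8.96e-13), and the muscle protease Capn3 at 1.76, 3.28 and 2.12 CPM in myoblasts and 19.7, 21.1 and 23.8 CPM in myotubes (log2 fold change 3.16, SE 0.164, adjusted p = 2.52e-11). The relatives of Trim63, Trim54 and Trim55, rose by 1.90 and 1.35 log2.

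On the list of satellite cell quiescence, 9 of 15 genes fell and 3 rose, with the adhesion molecule Vcam1 at a log2 fold change of -1.07 and the feedback inhibitor Spry1 at 1.33. Of 15 regulators of mitochondrial biogenesis 5 rose, or 2 with library totals, 3 fell and 7 were not called, near the background on the higher side. Perm1, a muscle regulator of mitochondrial genes, had 0 counts in each myoblast library and stood at 0.546, 0.485 and 0.606 CPM in myotubes, at least 9.49-fold higher against the floor of 3 counts per library, while Tfam, which packages mitochondrial DNA, fell by 0.42 log2. By gene type, 4284 of 13736 protein-coding genes tested were higher and 5437 lower, 165 and 135 of 577 lincRNA genes, and 158 and 85 of 562 antisense genes, for which strand use is not given. The higher counts of lincRNA and antisense genes are near the share over all genes. In all, 246 genes at or under the floor in every myoblast library were called higher, and 179 at or under it in every myotube library were called lower. How many tested genes at the floor were not called was not counted, so these are not shares.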
